A study of Mus musculus with 20 samples.

Results

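The genes described here encode the proteins of the mitochondrial ribosome. They were chosen by name and read number: protein-coding genes whose symbol is Mrpl or Mrps followed by a number, with at least 10 reads in at least 5 of the 20 mice. Of 78 genes with such a symbol, 76 met the minimum, 47 of the large subunit (Mrpl) and 29 of the small subunit (Mrps). All 76 passed the filter on low counts and were tested together with the other genes, 13783 in all. Mrpl53 had at most 1 read in any mouse, and 87.97% of its exonic bases are shared on the same strand with Gm42688, so that reads there are ambiguous and not counted. Mrpl23 reached 10 reads in 4 of 20 mice, and 78.03% of its transcript has a near-identical copy in 1 other gene. Just inside the limit was Mrps36, with 10 reads or more in 6 mice. Mrps23 had 10 reads or more in 17 mice.

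RNA was sequenced from the livers of 20 male mice, 5 in each of 4 groups, which were control and Titan mice of 11 weeks and control and Titan mice of 19–21 weeks. Titan (DU6) is a non-inbred line that was selected for high body size and weight over 45 years, and the controls are its unselected counterpart (FZTDU). All 4 groups had a standard breeding feed without restriction under specific pathogen-free housing. Titan is 1 selected line, so the effects of selection and of chance changes during breeding cannot be told apart. The study's methods state that males from different litters shared cages after weaning. No source used here says whether the sequenced mice of a group came from separate litters. The p-values set differences between groups against the spread between mice within the 4 groups, and hold for these mice. Reads on genes ranged from 6794935 to 23295028 per mouse, of which 11436 to 38949 fell on the 76 genes. In bulk liver, fewer cells of a type and less RNA per cell cannot be told apart.

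The mitochondrial ribosome translates the few mRNAs of mitochondrial DNA, which encode core subunits of the respiratory chain and of ATP synthase. Its rRNAs come from mitochondrial DNA, but its proteins are encoded in the nucleus, made in the cytosol and imported. Many of them have a counterpart in the bacterial ribosome, and the others are found in mitochondria only. Hepatocytes are rich in mitochondria, which oxidise fatty acids and house part of the urea cycle and of ketone body synthesis.

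Promoters of these genes are known to be bound by NRF1, by ETS factors such as GABPA, and by YY1, and 3 short motifs of these factors were searched on both strands in the 250 bases before the start of each gene (RefSeq, GRCm38.p6). Of the 76 genes, 67 were in the promoter table, with 73 windows. The NRF1 core GCGCATGC was found in 8 of the 73 windows (11.0%), against 2.26% of all 32851 promoters. The ETS motif CCGGAAGT was found in 10 windows (13.7%, against 2.88% of all promoters), and the YY1 motif AAGATGGC in 4 (5.48%, against 1.56%). Of the 14 genes that differed between Titan and control at either age, 11 were in the table and 3 held a motif (Mrpl9, Mrps27 and Mrps11), and a motif was held by 18 of the other 56 genes found there. The stretches below belong to genes to which the results return. They are the bases next to the start that lie in no annotated exon, printed in the direction of the gene and with a motif in capitals. Mrps9 (chr1:42851113-42851232, plus strand, no match to the 3 motifs in its window) was lower in Titan at both ages, Mrpl9 (chr3:94443198-94443317, plus strand, with the NRF1 core on both strands so that the matches overlap) was lower at 19–21 weeks, and Mrps27 (chr13:99344706-99344785, plus strand, with the ETS motif on the minus strand) was lower at 11 weeks. The last stretch (chr7:78783090-78783118) is all that separates the first exons of Mrps11, read on the plus strand, and Mrpl46, read on the minus strand. The YY1 match in the Mrps11 window lies within the first exon of Mrpl46 and is not part of the stretch shown.
Mrps9: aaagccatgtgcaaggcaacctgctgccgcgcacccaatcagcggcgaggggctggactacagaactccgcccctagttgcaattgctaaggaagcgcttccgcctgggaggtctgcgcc
Mrpl9: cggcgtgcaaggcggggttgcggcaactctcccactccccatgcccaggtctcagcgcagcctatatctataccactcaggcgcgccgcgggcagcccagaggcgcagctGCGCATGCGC
Mrps27: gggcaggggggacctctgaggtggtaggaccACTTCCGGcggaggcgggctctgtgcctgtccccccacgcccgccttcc
Mrps11 and Mrpl46: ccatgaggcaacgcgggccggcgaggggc

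Levels per length were compared as TPM, the share of each transcript among all transcripts, computed from the counts and the length of each gene's principal transcript. The median level was 28.4 TPM among the 47 large subunit genes and 25.1 TPM among the 29 small subunit genes, as means over the 20 mice. Highest in the large subunit were Mrpl52, a mitochondria-specific protein, at 102 TPM (64.4 to 139 over mice) and Mrpl12, a protein of the stalk that recruits translation factors, at 86.4 TPM. The lowest was Mrpl48, at 3.69 TPM. In the small subunit Mrps24, the counterpart of bacterial S3, led at 62.8 TPM, followed by Mrps34 at 51.2 TPM, and Mrps23 was lowest at 1.80 TPM. Among the 47 large subunit genes mean read counts ran from 106 to 767, whereas 4 small subunit genes had means under 50 reads, Mrps10, Mrps23, Mrps33 and Mrps36. Mrps36 is named after the ribosome but is now known as a subunit of the 2-oxoglutarate dehydrogenase complex. Reads that map to several positions are not in the counts, and 24 of the 76 genes have a near-identical copy of part of their transcript in another gene, among them Mrps10, for which the copy covers 56.3% of the transcript. The levels of such genes are uncertain.

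Relative to the other RNA measured, Titan livers of 19–21 weeks had less RNA of the mitochondrial ribosomal protein genes than control livers of that age. The sums that follow are described without a test, and amounts per liver or per cell were not measured. Summed over the 76 genes, CPM (counts scaled to each mouse's number of reads on genes, after TMM normalization) were 1513 ± 52.1 (SD, n = 5) in Titan and 1691 ± 68.7 (SD, n = 5) in control mice, a difference of −10.5%. For the large subunit, summed CPM in the 5 Titan mice were 1087, 1077, 1033, 999 and 1074, against 1159.6, 1176, 1241, 1096 and 1145 in the 5 control mice. Those of the small subunit were 467, 447, 479.6, 426 and 474 in Titan and 529, 555, 536, 501 and 514 in control mice. Every Titan mouse lay below every control mouse for both subunits, although the gap between the highest Titan and the lowest control sum was small for the large subunit (1087 and 1096). At 11 weeks the groups overlapped, with summed CPM of 1618 ± 64.3 in Titan and 1702 ± 57.8 in control mice (SD, n = 5 each, −4.94%). Controls of both ages were alike in this sum (−0.679% between 19–21 and 11 weeks), while Titan mice of 19–21 weeks differed by −6.52% from those of 11 weeks, with overlapping values.

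**Figure D1:**
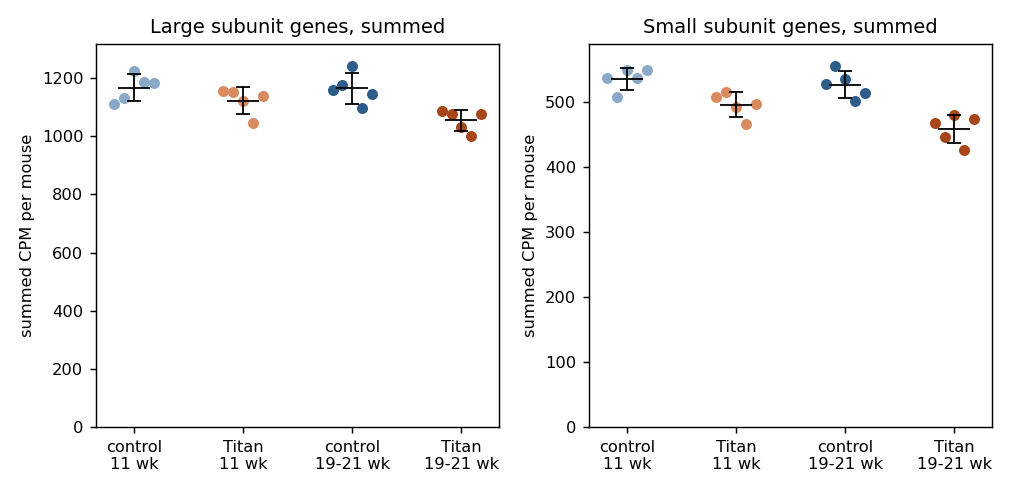
Summed CPM (y axis, linear, from 0) of the large subunit genes (left) and the small subunit genes (right) in the 4 groups. Each point is a mouse, and bars give the mean ± SD of 5 mice. Titan mice of 19–21 weeks, at 999 to 1087 and 426 to 479.6, all lie below the controls of that age.

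The shift was small for each gene and spread over most of them. In Titan mice of 19–21 weeks 45 of 47 large subunit genes and 24 of 29 small subunit genes had a negative log2 fold change (Titan against control), with a median of −0.15 in each subunit, while 48.4% of all tested genes were negative and their median was 0.01. At 11 weeks 33 of 47 and 18 of 29 were negative, with medians of −0.05 and −0.06, against 52.6% of all genes and a median of −0.02. Genes of the list share mice, so these counts describe the libraries and were not tested. With each mouse left out in turn, the medians at 19–21 weeks ran from −0.17 to −0.11 for the large and from −0.21 to −0.12 for the small subunit.

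**Figure D2:**
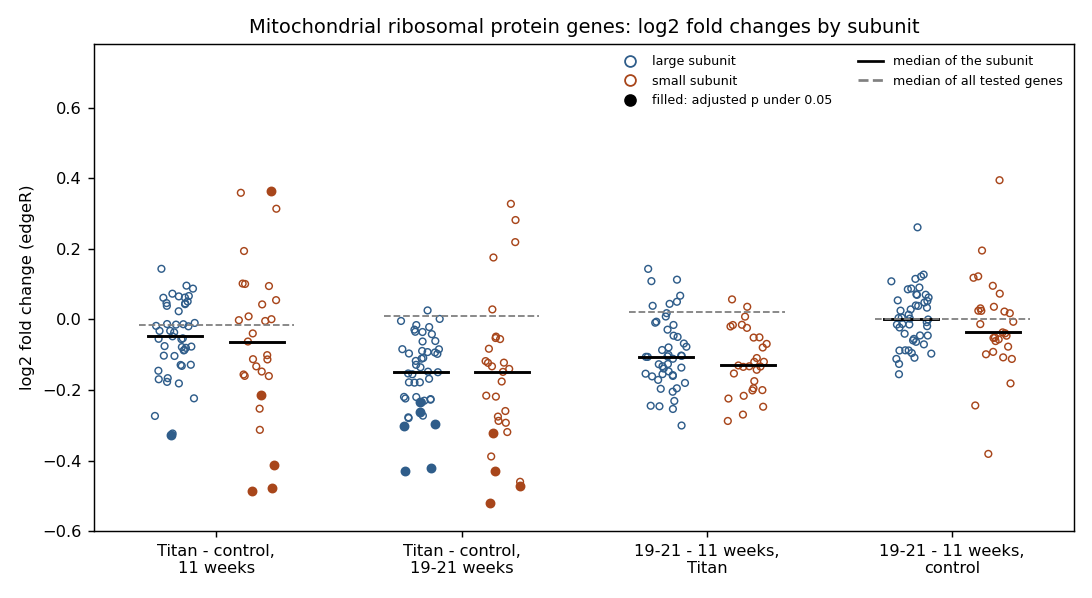
Log2 fold change (y axis) of each of the 47 large subunit genes (blue) and 29 small subunit genes (orange) in 4 comparisons (x axis). Filled points passed an adjusted p of 0.05, black lines are subunit medians and dashed grey lines the median of all 13783 tested genes. In Titan against control at 19–21 weeks most points and both medians (−0.15) lie below the grey line (0.01).

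At 19–21 weeks 10 of the 76 genes passed an adjusted p of 0.05 (edgeR quasi-likelihood test, two-sided, Benjamini–Hochberg adjustment over 13783 genes), and all 10 were lower in Titan. They were 6 of 47 in the large and 4 of 29 in the small subunit, where 4.88% of all tested genes were called lower. None was called higher, against 4.24% of all genes. At an unadjusted p under 0.05, 0 large subunit genes and 1 small subunit gene were higher, and DESeq2 called none higher. Without any overlap between the 5 Titan and 5 control mice, 8 of the 76 were lower (4% of all genes) and 0 higher (3.62%).

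In the large subunit the smallest p at 19–21 weeks belonged to Mrpl35, the counterpart of bacterial L35 (ENSMUSG00000052962, chromosome 6, 71812997 to 71826969). Its CPM were 19.7, 20.03, 20.9, 19.5 and 18.4 in the 5 Titan mice and 24.5, 27.8, 30.6, 24.1 and 25.1 in the 5 control mice. All Titan mice were below all controls (log2 fold change −0.43 ± 0.08 (SE), adjusted p = 0.00109). At 11 weeks Mrpl35 stood at 22.2 ± 1.35 in Titan and 24.9 ± 1.38 in control mice (SD, n = 5 each, adjusted p = 0.144), with overlap.

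Mrpl1, whose bacterial counterpart L1 forms the stalk near the exit site for tRNA (ENSMUSG00000029486, chromosome 5, 96209493 to 96266727), had CPM of 28, 31.2, 26, 30.2 and 26.9 in Titan and 38.9, 36.1, 37.8, 28.1 and 34.2 in control mice of 19–21 weeks. Control mouse 4, at 28.1, lay within the Titan range and the other 4 controls above it (log2 fold change −0.30 ± 0.08 (SE), adjusted p = 0.0212). The call was lost without Titan mouse 3 or 5 or without control mouse 1 or 3 of 19–21 weeks, with adjusted p of 0.0503 to 0.0614.

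Mrpl9, the counterpart of bacterial L9, whose promoter stretch with the NRF1 core is printed above (ENSMUSG00000028140, chromosome 3, 94443318 to 94451130), had CPM of 28.1, 25.4, 19.2, 24.5 and 24.3 in Titan and 30.4, 30.4, 40.95, 27.01 and 33.3 in control mice of 19–21 weeks. Control mouse 3 was highest and Titan mouse 3 lowest, and the groups overlapped at one pair of mice (log2 fold change −0.42 ± 0.11 (SE), adjusted p = 0.0223). Without either of these mice the adjusted p was 0.0593 or 0.0709.

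Mrpl15 lies in the core of the large subunit as the counterpart of bacterial L15 (ENSMUSG00000033845, chromosome 1, 4773206 to 4785739). Its CPM at that age were 44.4, 40.6, 48.4, 42 and 42.7 in Titan and 52.3, 55.4, 52.7, 44.4 and 56.2 in control mice, where control mouse 4 fell within the Titan range (log2 fold change −0.26 ± 0.07 (SE), adjusted p = 0.0315). At 11 weeks it had 48.9, 46.4, 47.1, 45.8 and 46.1 in Titan and 44.1, 53.1, 49.9, 47.9 and 56.6 in control mice, and the narrow Titan range lay inside that of the controls (log2 fold change −0.10 ± 0.07 (SE), adjusted p = 0.400). The call at 19–21 weeks was lost without any one of 7 mice (Titan mouse 2, 4 or 5 or control mouse 1, 2, 3 or 5 of that age, adjusted p 0.0562 to 0.0766).

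Mrpl58, a peptidyl-tRNA hydrolase that frees stalled ribosomes and is also built into the large subunit (ENSMUSG00000018858, chromosome 11, 115403752 to 115412674), had CPM of 16.4, 20.3, 17.99, 18.98 and 20.3 in Titan and 23.2, 24.7, 24.5, 22 and 21.1 in control mice of 19–21 weeks. Mrpl49, a mitochondria-specific protein (ENSMUSG00000007338, chromosome 19, 6053622 to 6057785), had 24.5, 24.7, 21.9, 23.3 and 20.6 in Titan and 26.7, 25.9, 29.1, 26.5 and 26.8 in control mice. In both genes all Titan mice were below all controls, by a narrow margin. The differences were −0.29 ± 0.09 (SE) for Mrpl58 and −0.23 ± 0.07 for Mrpl49 on the log2 scale (adjusted p = 0.0365 and 0.0469 in edgeR). The call of Mrpl58 was lost without any one of 6 mice of 19–21 weeks (Titan mouse 1, 3 or 4 or control mouse 1, 2 or 3, adjusted p up to 0.0854). That of Mrpl49 was lost without any one of 14 mice, among them all 5 controls and Titan mice 3, 4 and 5 of 19–21 weeks, with adjusted p up to 0.114. The number of large subunit genes called lower therefore depended on single mice and was 1 without control mouse 3, 2 without control mouse 1 or Titan mouse 3, and 3 without Titan mouse 4 or 5. With the 2 groups of that age fitted alone it was 1, with no filter on low counts 2 and with the share of reads outside genes as covariate 3. The large subunit gene with the smallest p among those above 0 at this age was Mrpl28, at 27.7 ± 2.87 in Titan and 27.2 ± 0.883 CPM in control mice (adjusted p = 0.888).

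In the small subunit Mrps31, a mitochondria-specific protein (ENSMUSG00000031533, chromosome 8, 22411361 to 22429665), had the largest difference at 19–21 weeks among the genes called. Its CPM were 25.6, 25.01, 21.3, 18.1 and 23.4 in Titan and 34.1, 30.3, 36.3, 31.9 and 29.4 in control mice, with Titan mouse 4 lowest and no overlap between the groups (log2 fold change −0.52 ± 0.09 (SE), adjusted p = 0.00123). At 11 weeks the means were 27.3 ± 1.51 and 30.4 ± 3.05 CPM (SD, n = 5 each) and the groups overlapped (adjusted p = 0.287).

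Mrps9 and Mrps18a were the genes called at both ages. Mrps9 is the counterpart of bacterial S9 (ENSMUSG00000060679, chromosome 1, 42851233 to 42905683). Its CPM at 11 weeks were 13.6, 15.2, 16.5, 15.4 and 17.9 in Titan and 22.2, 24.5, 20.4, 21.8 and 21.5 in control mice, and at 19–21 weeks 14.4, 17.4, 17.4, 15.9 and 14.1 in Titan and 22.1, 24.7, 20.5, 21.9 and 20.6 in control mice. Titan values ran from 13.6 to 17.9 over the 10 mice and control values from 20.4 to 24.7, so that the lines did not overlap at any age. The log2 fold changes were −0.49 ± 0.09 (SE, adjusted p = 0.000554) at 11 weeks and −0.47 ± 0.09 (adjusted p = 0.00183) at 19–21 weeks.

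Mrps18a, 1 of 3 mammalian relatives of bacterial S18, sits in the large subunit in structures of the mammalian mitochondrial ribosome despite its name (ENSMUSG00000023967, chromosome 17, 46110986 to 46128910). Its CPM were 20.8, 18.5, 19.3, 19.6 and 18.9 in Titan and 24.5, 24.2, 26.3, 24.6 and 35.4 in control mice of 11 weeks. In the older mice they were 18.1, 17.4, 20.2, 17.8 and 20.2 in Titan and 21.1, 30.3, 20.9, 25.7 and 28.3 in control mice. All Titan mice were below all controls at each age, and the controls were spread more widely, with control mouse 5 of 11 weeks apart from the rest. At 11 weeks the difference was −0.48 ± 0.11 (SE, adjusted p = 0.00603), and −0.36 without that mouse (adjusted p = 0.0196). In the older mice it was −0.43 ± 0.12 (adjusted p = 0.0228), and the call was lost without Titan mouse 4 or control mouse 2 or 5 of that age (adjusted p 0.0561 to 0.0687).

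The last gene of the small subunit called at 19–21 weeks was Mrps16, the counterpart of bacterial S16 (ENSMUSG00000049960, chromosome 14, 20389304 to 20393634). Its CPM were 11.4, 11.8, 11.7, 11.8 and 12.6 in Titan and 15.9, 15.5, 15, 14.1 and 13.7 in control mice, without overlap (log2 fold change −0.32 ± 0.10 (SE), adjusted p = 0.0426). At 11 weeks both lines had a mean of 13.6 CPM, with 12.8 to 14.2 in Titan and 11.1 to 16.1 in control mice. The call was lost without any one of 10 mice, among them each Titan mouse and control mice 1 to 4 of 19–21 weeks (adjusted p up to 0.0928). The number of small subunit genes called lower was 2 without Titan mouse 4 or control mouse 2 of this age.

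**Figure D3:**
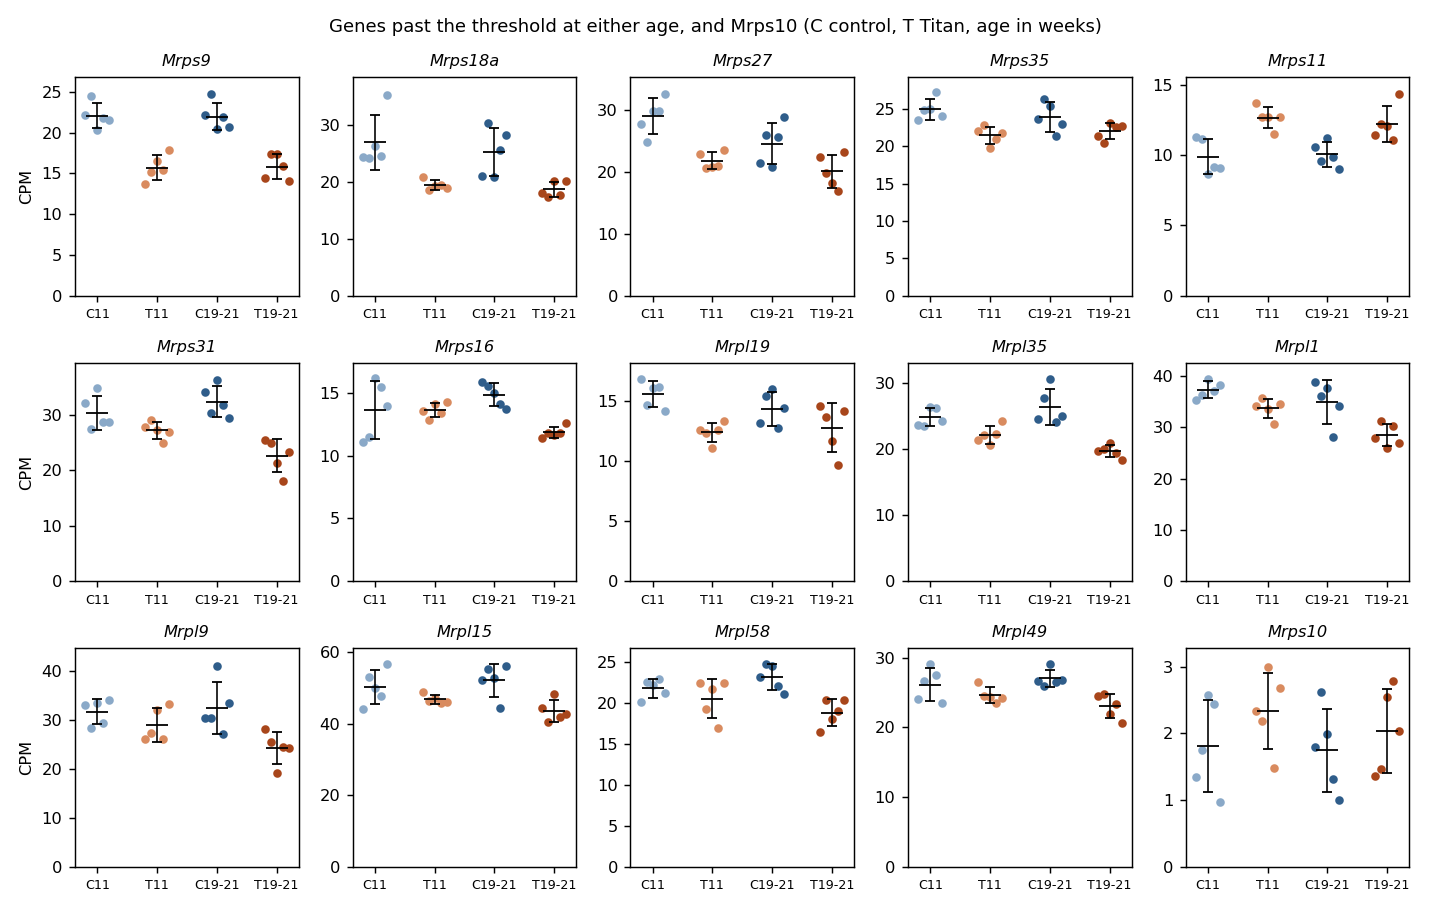
CPM (y axis, linear, from 0) of the 14 genes called at either age and of Mrps10, in control (C) and Titan (T) mice of 11 and 19–21 weeks. Each point is a mouse, and bars give the mean ± SD of 5 mice. Mrps9 separates the lines at both ages (13.6 to 17.9 against 20.4 to 24.7), and Mrps11 is the one gene called higher in Titan, at 11 weeks.

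At 11 weeks 6 of the 76 genes were called, 5 lower in Titan (7.69% of all tested genes) and 1 higher (7.23%). In the large subunit 1 of 47 was lower and 0 were higher, and in the small subunit 4 of 29 were lower and 1 higher. Neither edgeR at an unadjusted p under 0.05 nor DESeq2 gave a large subunit gene that was higher. The same numbers, 5 lower (6.09% of all genes) and 1 higher (5.84%), did not overlap between the lines. The share called lower was thus near that of all genes at this age.

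Mrpl19, the counterpart of bacterial L19 (ENSMUSG00000030045, chromosome 6, 81957851 to 81965958), was the large subunit gene called. Its CPM were 12.5, 12.3, 11.1, 12.6 and 13.3 in Titan and 16.8, 14.7, 16.05, 16.2 and 14.1 in control mice of 11 weeks, without overlap (log2 fold change −0.33 ± 0.10 (SE), adjusted p = 0.0337). The older groups overlapped, at 12.8 ± 2.04 and 14.4 ± 1.41 CPM (adjusted p = 0.314). The call at 11 weeks was lost, leaving 0 large subunit genes, without Titan mouse 1, 2 or 3 or control mouse 1, 3 or 4 (adjusted p 0.0587 to 0.108), while 2 genes were called without Titan mouse 4 of that age or Titan mouse 1 of 19–21 weeks. Counts over both strands, no filter on low counts and the replicate number as a block also left 0, and with the share of reads outside genes as covariate there were 2. Mrpl16, the counterpart of bacterial L16, had the smallest p among the large subunit genes above 0, at 29.9 ± 3.21 CPM in Titan and 27.05 ± 1.96 in control mice (adjusted p = 0.312).

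Mrps27, an RNA-binding protein found in mitochondria only, whose promoter stretch with the ETS motif is printed above (ENSMUSG00000041632, chromosome 13, 99344786 to 99415562), had CPM of 22.9, 20.6, 20.8, 20.9 and 23.6 in Titan and 27.8, 24.7, 29.9, 29.9 and 32.5 in control mice of 11 weeks. All Titan mice were below all controls (log2 fold change −0.41 ± 0.10 (SE), adjusted p = 0.00836), whereas at 19–21 weeks the groups overlapped at 20.1 ± 2.69 and 24.5 ± 3.33 CPM (adjusted p = 0.0919). Mrps35, also specific to mitochondria (ENSMUSG00000040112, chromosome 6, 147042764 to 147073991), had 22.1, 22.8, 19.8, 20.9 and 21.9 in Titan and 23.5, 24.9, 25, 27.3 and 24.1 in control mice of 11 weeks, without overlap (log2 fold change −0.22 ± 0.07 (SE), adjusted p = 0.0387). Its call was lost without any one of 8 mice, which were Titan mice 1, 3, 4 and 5 and control mice 2, 3 and 4 of 11 weeks and Titan mouse 3 of 19–21 weeks (adjusted p up to 0.128), and under DESeq2 (0.0553).

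Mrps11, the counterpart of bacterial S11 (ENSMUSG00000030611, chromosome 7, 78783119 to 78792989), went the other way. At 11 weeks its CPM were 13.7, 12.7, 12.7, 11.5 and 12.7 in Titan and 11.3, 11.2, 8.67, 9.15 and 9.11 in control mice, and every Titan mouse was above every control (log2 fold change 0.36 ± 0.10 (SE), adjusted p = 0.0148). At 19–21 weeks the values were 11.4, 12.2, 12.03, 11.05 and 14.4 in Titan and 10.5, 9.57, 11.2, 9.88 and 8.98 in control mice, with the lowest Titan mouse just under the highest control (log2 fold change 0.28 ± 0.10 (SE), adjusted p = 0.0866). Its neighbour Mrpl46 starts in the opposite direction across the stretch of 29 bases printed above, and had 14.04 ± 1.23 CPM in Titan and 15.4 ± 1.15 in control mice of 11 weeks (log2 fold change −0.13 ± 0.09, adjusted p = 0.395). At 19–21 weeks Mrpl46 had 11.9 ± 1.04 and 13.8 ± 1.53 CPM (−0.22 ± 0.09, adjusted p = 0.157). Mrpl46 was chosen for description after its values were seen, because of its position.

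Mrps10, the counterpart of bacterial S10 and with Mrpl15 a marker given for these genes, had between 10 and 64 reads per mouse. Its CPM were 2.34, 2.19, 2.99, 1.49 and 2.69 in Titan and 1.35, 1.75, 2.58, 2.44 and 0.966 in control mice of 11 weeks. The groups overlapped widely there and at 19–21 weeks (0.36 ± 0.28 and 0.22 ± 0.30 (SE) on the log2 scale, adjusted p = 0.444 and 0.704), and at this depth a difference of the size seen in the other genes was not detectable.

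Of the 14 genes called at either age, Mrps9 at both ages, Mrps18a, Mrps27 and Mrps11 at 11 weeks, and Mrpl35 and Mrps31 at 19–21 weeks stayed past the threshold under all 31 alternatives run, and the other calls did not. The comparisons of the lines at the 2 ages have no mice in common, but a gene past the threshold at one age and not at the other was not thereby shown to differ between the ages. That difference was tested as the interaction of line and age.

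With age, 0 of the 76 genes were called in Titan mice (19–21 against 11 weeks), where 1.25% of all genes were called. In control mice 0 were called (0.0871% of all genes), and 0 passed for the interaction (0.00726%). At an unadjusted p under 0.05, edgeR gave 12 genes in Titan, all lower at 19–21 weeks, 1 in control mice and 5 for the interaction, all of them negative. DESeq2 called 1 gene in Titan, 0 in control mice and 0 for the interaction. The median log2 fold change with age was −0.11 for the large and −0.13 for the small subunit in Titan (38 of 47 and 26 of 29 genes negative, against 46.04% of all genes and a median of 0.02), and 0.00 and −0.04 in control mice (23 of 47 and 17 of 29 negative). These medians use the same Titan and control mice as those between the lines.

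Mrpl16 had the smallest p of the 76 genes with age in Titan. Its CPM were 33.1, 33.4, 27.2, 26.6 and 29.1 at 11 weeks and 25.3, 22.7, 27.1, 21.3 and 25.2 at 19–21 weeks, with overlap at one pair of mice (log2 fold change −0.30 ± 0.09 (SE), adjusted p = 0.101 in edgeR, and 0.0443 in DESeq2). In control mice the smallest p was that of Mrps27, at 28.9 ± 2.89 CPM at 11 weeks and 24.5 ± 3.33 at 19–21 weeks (SD, n = 5 each, adjusted p = 0.721). For the interaction it was that of Mrps31, whose age effect was −0.27 in Titan and 0.10 in control mice on the log2 scale (difference −0.36 ± 0.13, SE, adjusted p = 0.379).

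Genes with and without a bacterial counterpart were described apart, with no test between them. Sorted by symbol number alone, 44 genes were counted as having a bacterial counterpart and 32 as specific to mitochondria. The number is only a proxy and can misplace single genes. It puts Mrps36, named above as a subunit of another complex, among the 32. At 19–21 weeks 7 of the 44 and 3 of the 32 were called lower in Titan (4.88% of all genes), with medians of −0.15 and −0.14 and 39 and 30 genes negative. In the large subunit all 20 genes counted as mitochondria-specific were negative (−0.29 to −0.02), as were 25 of the 27 counted with a counterpart, with medians of −0.14 and −0.15. In the small subunit the 17 genes with a counterpart had a median of −0.22 (14 negative) and the 12 without one −0.14 (10 negative). At 11 weeks 3 of the 44 and 2 of the 32 were called lower (7.69% of all genes), with medians of −0.05 and −0.04.

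Read sharing was compared in the same way. The 46 genes with no near-identical copy and no exonic base shared on the same strand had a median of −0.12 at 19–21 weeks, with 7 called lower (4.88% of all genes) and 41 negative. The other 30 had a median of −0.18, with 3 called lower and 28 negative. At 11 weeks the medians were −0.04 and −0.07.

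Of proteins of the mitochondrial ribosome that carry other names, 5 genes were described beside the 76, and all 5 had negative log2 fold changes at both ages. Dap3, a GTP-binding protein of the small subunit, had 26.2 ± 1.94 CPM in Titan and 36.2 ± 2.77 in control mice of 11 weeks (log2 fold change −0.47 ± 0.08 (SE), adjusted p = 0.000265) and 27.2 ± 1.99 and 32.96 ± 2.62 at 19–21 weeks (log2 fold change −0.28 ± 0.08 (SE), adjusted p = 0.0281). Aurkaip1, also of the small subunit, had 33.6 ± 1.96 and 42.6 ± 4.34 CPM at 11 weeks (log2 fold change −0.35 ± 0.08 (SE), adjusted p = 0.00452) and 32.8 ± 2.19 and 42.04 ± 3.98 at 19–21 weeks (log2 fold change −0.36 ± 0.08 (SE), adjusted p = 0.00727). Both were lower in Titan at both ages. Ptcd3, a pentatricopeptide repeat protein of the small subunit, was lower at 19–21 weeks (log2 fold change −0.27 ± 0.08 (SE), adjusted p = 0.0350) and had −0.10 at 11 weeks (adjusted p = 0.420). Chchd1 of the small subunit (−0.22 and −0.28, adjusted p = 0.171 and 0.120) and Gadd45gip1 of the large subunit (−0.19 and −0.14, adjusted p = 0.358 and 0.545) did not pass the threshold.

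Genes that act with the mitochondrial ribosome were described by list. As the background of these lists, 7.69% of all tested genes were called lower in Titan and 7.23% higher at 11 weeks. At 19–21 weeks the shares were 4.88% and 4.24%. The counts of these short lists were not tested against the shares. The 26 genes for mitochondrial ribosome assembly and rRNA modification had medians of −0.08 at 11 weeks and −0.09 at 19–21 weeks. Of these, 1 was lower at 11 weeks and 2 at 19–21 weeks. These were Mrm3, an rRNA methyltransferase, at both ages (−0.44 and −0.61, adjusted p = 0.0464 and 0.0151), and Tfb1m, which dimethylates the small rRNA, at 19–21 weeks (−0.54, adjusted p = 0.0260). Of 12 translation factors, 0 were called at 11 weeks (0 at an unadjusted p under 0.05, 0 by DESeq2) and 2 were lower at 19–21 weeks, the elongation factor Gfm1 (−0.35, adjusted p = 0.0216) and Gfm2, a factor of ribosome recycling (−0.22, adjusted p = 0.0449), with a median of −0.16. Of 20 aminoacyl-tRNA synthetases and amidotransferase subunits, 2 were lower at 11 weeks, Tars2 (−0.31, adjusted p = 0.00387) and Nars2 (−0.40, adjusted p = 0.0203), and Gatc, Wars2 and Iars2 were higher (0.29, 0.43 and 0.25, adjusted p = 0.0342, 0.0422 and 0.0457). At 19–21 weeks Gatc, Wars2 and Iars2 had 0.26, 0.21 and 0.09 (adjusted p = 0.0845, 0.391 and 0.560), and 2 of the 20 were lower, among them Fars2 (−0.36, adjusted p = 0.0142).

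Of 11 tested genes for expression of mitochondrial DNA, 2 were lower at 11 weeks (7.69% of all genes). These were the transcription elongation factor Tefm (−0.41, adjusted p = 0.0264) and the mRNA-stabilising Lrpprc (−0.26, adjusted p = 0.0345). At 19–21 weeks 0 were called (4.88% of all genes lower and 4.24% higher), with 2 at an unadjusted p under 0.05 and 0 by DESeq2. Of the 13 mRNAs that the mitochondrial ribosome translates, 7 were tested, and the rest did not pass the filter on low counts. Multi-mapped and ambiguous reads are not in the counts, so a low count here need not mean a low level. The 7 gave 0 calls at either age (0 and 1 at an unadjusted p under 0.05, 0 and 1 by DESeq2). Their medians were −0.16 and −0.31, with SE of up to 0.86. The closest to the threshold was mt-Co1 at 19–21 weeks (log2 fold change −0.37 ± 0.14 (SE), adjusted p = 0.0927). Of 9 nuclear regulators of mitochondrial genes, Myc was lower at 11 weeks (log2 fold change −1.77 ± 0.51 (SE), adjusted p = 0.0214) and 0 were called at 19–21 weeks (2 at an unadjusted p under 0.05, 0 by DESeq2).

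As a gauge of other mitochondrial proteins, 12 genes of the mitochondrial membranes and matrix were described. Of these, 2 were lower at 11 weeks (7.69% of all genes) and 3 at 19–21 weeks (4.88%). The medians were −0.09 and −0.15, and 11 of 12 were negative at 19–21 weeks. Timm44, of the protein import motor, was lower at both ages (−0.24 and −0.24, adjusted p = 0.0161 and 0.0250), as was the outer membrane channel Vdac2 (−0.25 and −0.31, adjusted p = 0.0347 and 0.0168), and Vdac1 was lower at 19–21 weeks (−0.26, adjusted p = 0.0224). The proteins of the cytosolic ribosome had another pattern over the ages. Of 75 tested genes, 16 were lower in Titan at 11 weeks (7.69% of all genes), with a median of −0.32. Only Rpl34 (2.39, adjusted p = 0.0151) was higher (7.23% of all genes). At 19–21 weeks 6 were lower (4.88%) and 0 higher (4.24%), with a median of −0.09. With age, 0 were called in either line (1.25% of all genes in Titan and 0.0871% in control mice). Their reads are partly shared with processed pseudogenes, and the change between the ages was not tested for the list.

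**Figure D4:**
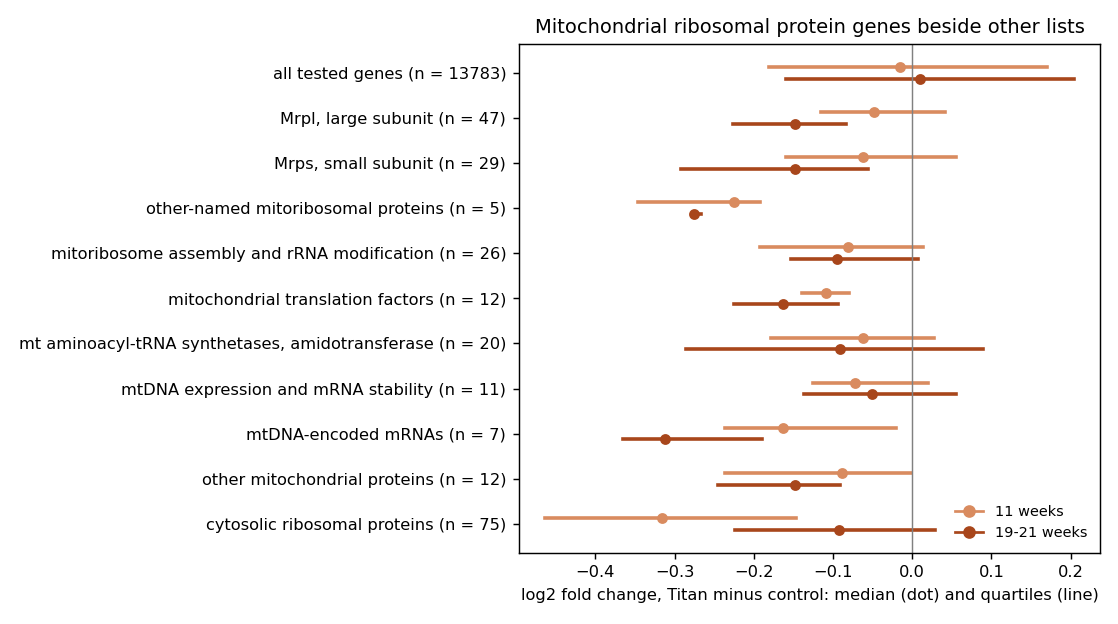
Log2 fold change between Titan and control (x axis) for all tested genes, the genes of both subunits and 8 other lists (y axis, with the number of tested genes), at 11 weeks (light) and 19–21 weeks (dark). Dots are medians and lines run from the lower to the upper quartile. For both subunits the median moves from near −0.05 at 11 weeks to −0.15 at 19–21 weeks.

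Depth and cell makeup were described beside these results. Reads on genes ran from 6794935 to 11464698 in Titan mice of 19–21 weeks, the group with the lowest mean (9390668). Control mice of that age had 7806106 to 18127024 (mean 12211941). At 11 weeks Titan mice had 10465526 to 23295028 and control mice 12209454 to 22166755 (means of 14989315 and 15764865). The part of depth in the lower sums of the older Titan mice was not tested. The share of reads outside genes ran from 18.4% to 34.7% in Titan and from 21.3% to 38.2% in control mice of 11 weeks, and from 25.2% to 41.96% and from 23% to 41.2% at 19–21 weeks. Among the 10 mice of 19–21 weeks, Titan mouse 4, with 35.1%, had the lowest sums of both subunits. Control mouse 4, with 41.2%, had the lowest sums of the controls. Titan mouse 3, with the highest share (41.96%), had the highest small subunit sum of its group (479.6 CPM). Its large subunit sum (1033 CPM) was lower than in the other Titan mice of that age except mouse 4 (999 CPM). With this share as covariate the medians at 19–21 weeks were −0.13 and −0.12, with 3 genes of each subunit called lower. Hepatocyte markers (5 genes, summed) overlapped between all groups (63916 to 98203 CPM). Alb makes up most of this sum, and of the others Apoa1 (−0.54, adjusted p = 0.0120) and Cps1 (−0.72, adjusted p = 0.0293) were lower in Titan at 11 weeks and had 0.08 and −0.24 at 19–21 weeks (adjusted p = 0.771 and 0.539). Endothelial markers ranged from 220.3 to 263 CPM in Titan and from 265 to 303 in control mice of 11 weeks, with Pecam1 and Kdr lower in Titan. The sums overlapped at 19–21 weeks, where Lyve1 was lower in Titan (1.69 against 7.76 CPM on average, log2 fold change −2.18, adjusted p = 0.0107). Kupffer cell, stellate cell, cholangiocyte and erythroid markers, summed, overlapped between the lines at each age, but Hba-a2 of the erythroid list was higher in Titan at both (means of 10.3 and 12.2 CPM, against 0.0138 and 0.0108 in control mice). T and B cell markers summed to 2.55 to 5.55 CPM in Titan and 1.34 to 1.92 in control mice of 11 weeks, with Cd3e higher in Titan at both ages (adjusted p = 0.000224 and 0.0348), and the 5 neutrophil markers to 2.61 CPM at most. Of 5 adipocyte markers, Adipoq, Plin1, Lep and Retn had 3 reads or fewer in every mouse, and Cidea, which steatotic hepatocytes can also express, had up to 407 and was higher in Titan at both ages (means of 3.66 and 10.1 CPM, against 0.0533 and 0.107 in control mice, adjusted p = 0.0130 and 0.00521). Their part in the results was not tested.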

How the data were processed

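Liver RNA of 20 male mice was sequenced on an Illumina HiSeq instrument after rRNA depletion and directional library preparation. With STAR 2.5.3a, GRCm38 and the Ensembl 97 annotation, the authors made and deposited raw counts of reads per gene, without multi-mapped or ambiguous reads and for each strand. The strand that held 96.8% to 97.55% of strand-assigned reads was used. Symbols, positions and transcripts came from GENCODE M21 (55480 of 55573 gene IDs matched). As in the study's methods, 1562 genes of chromosome Y and 109 of histones were left out. Groups and replicate numbers came from the sample titles.

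Counts were analysed in edgeR 4.0.16 (R 4.3.3) with filterByExpr at its defaults (13783 genes), TMM scaling and two-sided quasi-likelihood tests in one model of the 4 groups. P values were adjusted by Benjamini–Hochberg over these genes, at a threshold of 0.05, and SE were derived from the size of the log2 fold change and its F statistic. CPM are counts divided by the TMM-scaled library size, and TPM use the principal transcript. Copies were sought with BLAST 2.17.0 (identity of at least 95% over at least 100 bases). The steps were also run on simulated counts in which genes varied independently and some had known changes. That run did not probe small shifts shared by many genes, such as those described here. Alternatives were DESeq2 1.42.0, RLE size factors, counts over both strands, no filter or at least 10 counts in every mouse, only the groups compared, the replicate number as a block, the share of reads outside genes as covariate, trends with gene length or GC content (of the longest annotated transcript, as no genome was used) removed, Y and histone genes kept, and each mouse left out.

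The genes, lists and tests were chosen with earlier results of these data known. Genes are named by rule: the markers Mrpl15 and Mrps10, the 4 genes per subunit, age and direction with the smallest p past the threshold (or the 1 with the smallest p), the smallest p of the age comparisons, the extremes of level, and the 2 with the smallest p of each other list. Mrpl49 and Mrpl58, called outside that limit, were added after their values were seen, as were genes of other lists named beyond 2 or for being higher. A gene of these lists is not reported here. Bacterial counterparts were assigned by symbol number (36 or below in the large subunit, 21 or below and Mrps24 in the small), without a check of each protein.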

Additional observations from a re-analysis of the deposited data

Results flagged for a closer look

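The gap of the highest and lowest mouse to the next was examined in 84 sets of 5 mice, of which about 5% are marked by chance, and 2 were marked. Control mouse 5 of 11 weeks had 35.4 CPM of Mrps18a, apart from the other 4 controls at 24.2 to 26.3. Titan mouse 4 of 11 weeks had a median log2 deviation from the control mean of 11 weeks of −0.14 over the large subunit genes, apart from the other 4 Titan mice at −0.03 to 0.01.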

How the results depend on the processing

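The medians of both subunits at both ages kept their sign and moved by less than 1 SD of the mice under all alternatives. Among the counts of large subunit genes called lower at 19–21 weeks (6), 2 were called with no filter on low counts, 1 with only the groups compared and 3 with the share of reads outside genes as covariate, and 1 to 7 with each mouse left out. Small subunit genes called lower at 19–21 weeks (4) numbered 2 to 5 with each mouse left out. At 11 weeks 0 large subunit genes were called lower (1 in the report) with counts over both strands, with no filter and with the replicate block, and 2 with the share of reads outside genes as covariate. They numbered 0 to 2 with each mouse left out, and 2 when Mrps18a and Mrps30, which structures place in the large subunit, were counted there, an alternative chosen after seeing the data. DESeq2 called 1 gene lower with age in Titan (0 in edgeR). For these counts the cause was not tested. Same-numbered mice of different groups did not deviate together (correlations of −0.16 to 0.19 over 30 pairs, the best match having the same number in 5 of 30), and with the replicate block 4 large and 3 small subunit genes were lower at 19–21 weeks. Of single genes, 6 kept their call in all 31 alternatives (Mrps9 at both ages, Mrps11, Mrps18a and Mrps27 at 11 weeks, Mrpl35 and Mrps31 at 19–21 weeks), and Mrpl16 in Titan passed the threshold in DESeq2. No single gene that was called changed its sign. Low counts limit Mrps10, Mrps23, Mrps33 and Mrps36.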
